A study of Mus musculus with 32 samples.

Results

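The 10 genes described here are heat shock genes and heat shock factors, taken by their symbols from a table of 34223 genes measured in 32 single mouse embryos. They are the small heat shock protein gene Hspb1, the HSP70 genes Hspa1a, Hspa1b and Hspa8, the HSP110 gene Hsph1, the J protein gene Dnajb1, the HSP90 genes Hsp90aa1 and Hsp90ab1, and the factor genes Hsf1 and Hsf2. All 10 were found in the table. Per the labels, every embryo was wild type, carried injected H3.3-GFP mRNA, which encodes a fluorescent histone, and was collected late in the 2-cell stage, 28 h after in vitro fertilization. The 16 Val_LNA embryos also received an antisense oligonucleotide containing locked nucleic acid (LNA) against tRFValCAC, a small RNA cut from a valine transfer RNA. The 16 Ctrl_LNA embryos received a scrambled LNA oligonucleotide in its place. The comparison asked which transcripts differed once the fragment was targeted. GFP-positive embryos were the ones cultured, so the series holds no uninjected embryo, and the strain is not given in the sources used here. Labels do not say how many matings or injection days lie behind a group, so the p-values refer to the spread among these embryos, which may be partly technical.

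Heat shock proteins are molecular chaperones that bind unfolded or partly folded proteins, keep them from aggregating and help them reach their folded form. Heat shock factors are transcription factors that bind repeats of the unit GAA, in alternating orientation, in the promoters of chaperone genes and drive their transcription under stress. In the mouse, Hspa1a and Hspa1b belong to the earliest genes transcribed from the embryonic genome, and Hsf1 supplied by the oocyte is needed for normal early development.

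The promoters of Hspb1, Hspa1a and Hspa1b are shown because Hspb1 is the member that differed between the groups and because the other 2 are near-identical copies. Each stretch is the 250 bases before the gene's start in RefSeq (GRCm38.p6), written 5′ to 3′ on the gene's own strand, and capitals mark pairs of heat shock units in the form GAANNTTC. Hspb1 lies at chr5:135887669-135887918 on the plus strand, Hspa1a at chr17:34972157-34972406 and Hspa1b at chr17:34959239-34959488, both on the minus strand.
Hspb1: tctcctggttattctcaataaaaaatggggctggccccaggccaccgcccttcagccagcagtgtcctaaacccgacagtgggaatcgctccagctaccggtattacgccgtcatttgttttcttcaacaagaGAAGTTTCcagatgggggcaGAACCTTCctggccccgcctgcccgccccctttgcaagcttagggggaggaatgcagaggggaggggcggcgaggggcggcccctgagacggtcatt
Hspa1a: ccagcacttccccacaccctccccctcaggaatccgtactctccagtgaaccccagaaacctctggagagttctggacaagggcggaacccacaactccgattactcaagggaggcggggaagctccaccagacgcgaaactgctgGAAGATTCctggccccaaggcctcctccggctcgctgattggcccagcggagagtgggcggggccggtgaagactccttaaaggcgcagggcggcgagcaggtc
Hspa1b: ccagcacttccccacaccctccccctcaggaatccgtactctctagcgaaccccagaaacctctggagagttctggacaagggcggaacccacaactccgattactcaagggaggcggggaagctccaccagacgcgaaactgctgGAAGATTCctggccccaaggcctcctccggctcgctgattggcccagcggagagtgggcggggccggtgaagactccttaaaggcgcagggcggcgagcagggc

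The Hspb1 stretch holds GAANNTTC at 2 places, starting 117 and 97 bases before the gene's start. Hspa1a and Hspa1b each hold it at 1 place, starting 104 bases before the start. The Hspa1a and Hspa1b stretches differ at 3 of 250 bases, C44T, T47C and T249G, with the Hspa1a base first and positions counted from 1 at the 5′ end. Of the 10 members, 6 had a RefSeq promoter entry, and Hspa8, Hsf1, Hsp90aa1 and Hsp90ab1 did not. Hsph1 holds the other arrangement of the pair, TTCNNGAA, at 1 place, and Hsf2 and Dnajb1 hold neither. Both motifs read the same on both strands, so each place counts for both. Among 32851 promoter stretches of this length, 6.7% held GAANNTTC, 7.2% held TTCNNGAA and 12.8% held either. None of the members' stretches held 3 exact units in a row, which 0.466% of all stretches did. Only exact units were searched, so a row of units in which some have a changed base is neither marked nor counted here. Whether the stretches hold such longer elements was not tested.

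Sequencing depth was 2592925 to 6259870 reads in genes per embryo in Val_LNA and 3759692 to 6128941 in Ctrl_LNA. A total of 16687 to 20200 genes were detected in 31 of the embryos, against 7276 in the embryo Ctrl_LNA 48, which had 5122089 reads. Results that move with this library are therefore given with and without it. All 7 markers of the 2-cell embryo in the table were tested, and their summed normalised count was 4132 to 24680 in Val_LNA and 2161 to 23305 in Ctrl_LNA, with 2232 in Ctrl_LNA 48. All 9 oocyte markers were also tested, with sums of 5074 to 30771 in Val_LNA and 1538 to 21034 in Ctrl_LNA, the lowest being Ctrl_LNA 48. Of 9 cumulus and granulosa cell markers, 1 passed the filter on low values, and the list summed to at most 364 in Val_LNA and 185 in Ctrl_LNA. Trophectoderm markers, of which 5 of 7 passed, summed to 465 to 844 in Val_LNA and 472 to 1992 in Ctrl_LNA, the highest being Ctrl_LNA 48. Sperm markers reached at most 60.6 in Val_LNA and 50.4 in Ctrl_LNA, and blood markers at most 836.5 in Val_LNA and 679 in Ctrl_LNA. The group medians of these sums, Val_LNA first, were 7282 and 4836 for the 2-cell embryo, 12663 and 8647 for the oocyte and 605 and 854 for the trophectoderm. For cumulus and granulosa cells they were 34.8 and 15.3, for sperm 9.7 and 7.5, and for blood 158 and 136. The part of these marker levels in the results was not tested. A normalised count is relative to the other RNA of the library. Every embryo was labelled as 2-cell, and RNA of its own cells and of any attached cells cannot be told apart in a whole embryo.

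Of the 10 members, 1 was lower in Val_LNA embryos, 0 were higher and 9 did not pass the test. The gene that fell was Hspb1. The test was limma on log2(normalised count + 1) over the 15559 genes with a normalised count of at least 10 in at least 8 embryos, at a Benjamini-Hochberg adjusted p under 0.05, and all 10 members were tested. The same test called 1.31% of all tested genes lower and 0.881% higher. At an unadjusted p under 0.05, 3 members were lower and 0 were higher, against 14.7% of all genes in either direction. EdgeR and DESeq2 also called 1 member lower and 0 higher, where edgeR called 1.05% of all genes lower and 0.186% higher and DESeq2 2.19% and 1.33%. The members' median log2 fold change was −0.17 and 6 of 10 were negative, beside a median of 0.26 and 35.7% negative over all tested genes. The signs of Hspa1a, Hspa1b and Hsp90aa1 were positive with limma and negative with edgeR, and DESeq2 also gave Hspa1a and Hspa1b a negative sign. EdgeR gave 9 of 10 members a negative sign, beside 47.3% of all tested genes. Without Ctrl_LNA 48 the members' limma median was −0.18, beside 0.07 over all genes, and 6 of 10 were negative, beside 45.8% of all genes. Limma there again called 1 member lower and 0 higher, beside 2.63% and 1.57% of all genes. EdgeR without that library also called 1 lower and 0 higher, beside 1.61% and 0.54%.

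**Figure D1:**
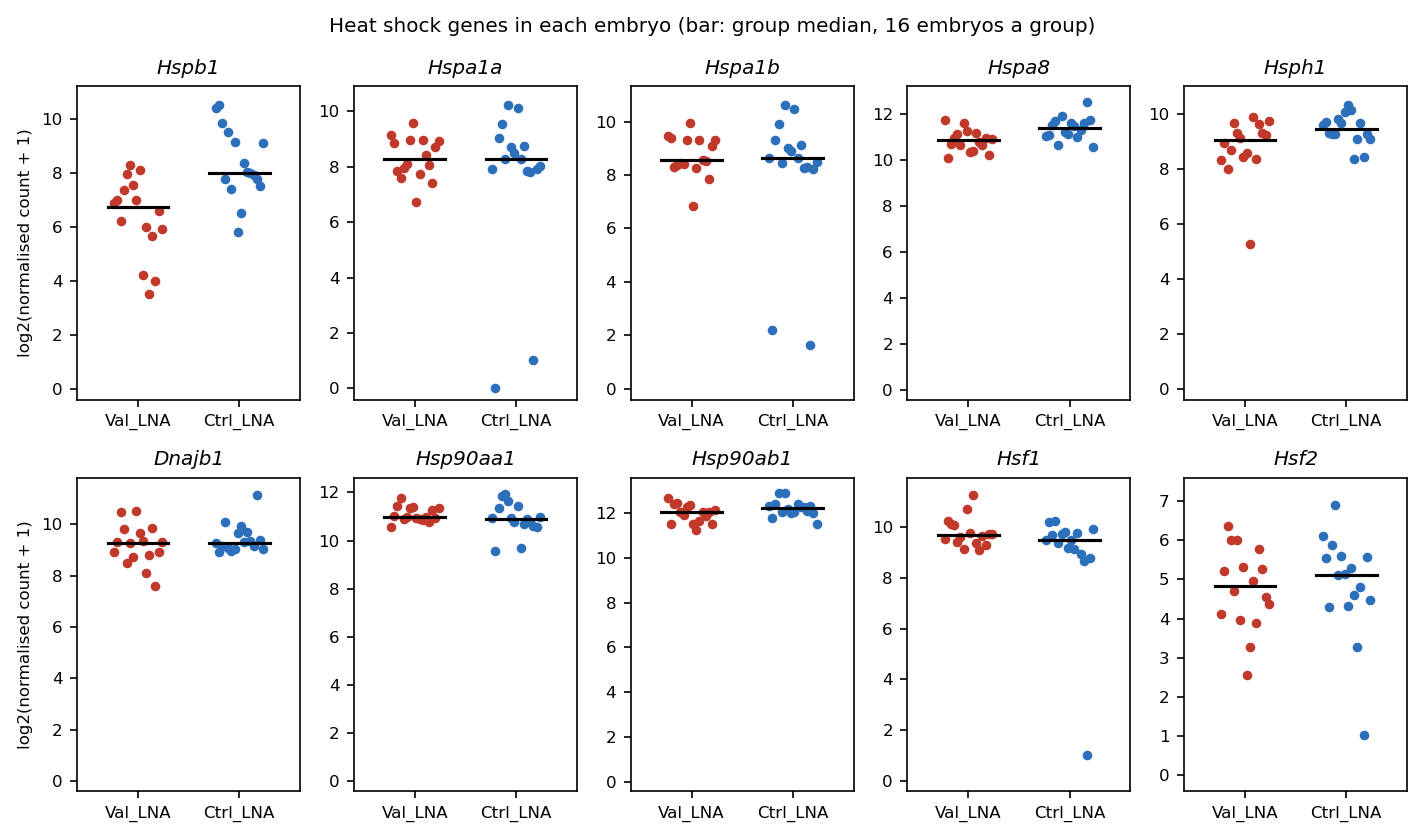
Log2(normalised count + 1) of the 10 members, with 1 panel for each gene, 1 point for each embryo (16 Val_LNA, 16 Ctrl_LNA) and a bar at the group median. The Val_LNA points of Hspb1 lie lower than the Ctrl_LNA points with overlap, and 2 Ctrl_LNA embryos stand apart in Hspa1a and Hspa1b.

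**Figure D2:**
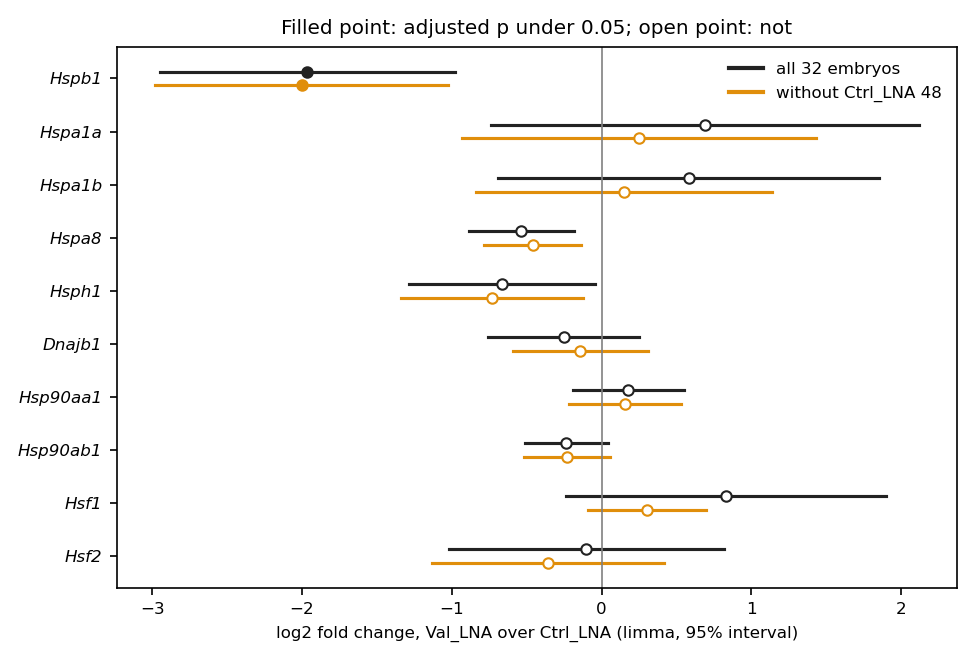
Log2 fold change of each member, Val_LNA over Ctrl_LNA, with its 95% interval from limma, over all 32 embryos (black) and without Ctrl_LNA 48 (orange). Only Hspb1 has filled points, at −1.96 and −2.0, and the point of Hsf1 moves to 0.30 without Ctrl_LNA 48.

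Hspb1 encodes a small heat shock protein (HSP27 in humans, HSP25 in the mouse), which holds unfolding proteins without using ATP. The gene (ENSMUSG00000004951.10) is protein-coding and spans chr5:135887919-135889563 on the plus strand of GRCm38. Its normalised count was 10.5 at the lowest, 106.9 at the median and 312.8 at the highest in Val_LNA embryos, against 56.0, 259 and 1487 in Ctrl_LNA embryos. The groups overlapped: 4 Val_LNA embryos lay below every Ctrl_LNA embryo, 7 Ctrl_LNA embryos lay above every Val_LNA embryo, and 14 of 16 Val_LNA embryos were below the Ctrl_LNA median. Val_LNA embryos averaged 122 ± 94.1 and Ctrl_LNA embryos 480 ± 439 (SD, n = 16 each), a ratio of 0.254. With limma, Hspb1 had a log2 fold change of −1.96 ± 0.48 (SE, 95% interval −2.95 to −0.98) and an adjusted p of 0.0191. EdgeR's quasi-likelihood test on the recovered reads gave −1.99 with an adjusted p of 0.0143, and DESeq2 gave −1.97 with an adjusted p of 0.000427. Without Ctrl_LNA 48 the limma value was −2.0 ± 0.48 with an adjusted p of 0.0103. With each of the 32 embryos left out in turn, Hspb1 was called 32 times, with log2 fold changes of −2.13 to −1.77.

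The library numbers in the labels form 4 unbroken runs of 8, which the labels do not call batches. Hspb1 was 74.9 to 312.8 in Val_LNA 1 to 8 with a median of 146, against 56.0 to 1487 in Ctrl_LNA 31 to 38 with a median of 654. In the higher numbers it was 10.5 to 277 in Val_LNA 13 to 20 with a median of 55.0, against 90.0 to 555 in Ctrl_LNA 43 to 50 with a median of 249. In the higher numbers a single Val_LNA embryo, number 13, lay above 95.7, and the others of that run lay at or below this value. Within the lower runs the limma log2 fold change was −1.52 ± 0.57 (adjusted p 0.265). Within the upper runs it was −2.40 ± 0.67 (adjusted p 0.218), and −2.42 without Ctrl_LNA 48 (adjusted p 0.0672). With 8 embryos a group, Hspb1 therefore did not pass the adjusted threshold in either set of runs, while the unadjusted limma p was 0.0146 in the lower and 0.00175 in the upper runs. These tests called 0.533% of all genes lower and 0.623% higher in the lower runs, 0.212% and 0.0129% in the upper runs, and 0.797% and 0.045% in the upper runs without Ctrl_LNA 48. The 2 effects differed by −0.88 ± 0.87 (upper minus lower, limma interaction, adjusted p 0.846). No gene was called for that interaction with limma, and 808 genes (5.19%) had an unadjusted p under 0.05. With run as a covariate over all embryos, the limma adjusted p of Hspb1 was 0.00732.

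The runs were also compared within each group, a contrast added after the values were seen. Upper minus lower, the limma log2 difference of Hspb1 was −1.78 ± 0.61 in Val_LNA (unadjusted p 0.0064, adjusted p 0.999) and −0.90 ± 0.61 in Ctrl_LNA (unadjusted p 0.15, adjusted p 0.457). Neither passed the adjusted threshold, and an unadjusted p under 0.05 was found for 4.12% of all genes in Val_LNA and 14.1% in Ctrl_LNA. Without Ctrl_LNA 48 the limma adjusted p of Hspb1 was 0.513 in Val_LNA and 0.621 in Ctrl_LNA. An unadjusted p under 0.05 was then found for 1112 of 15559 genes in Val_LNA and 1549 in Ctrl_LNA, against 641 and 2189 over all embryos.

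**Figure D3:**
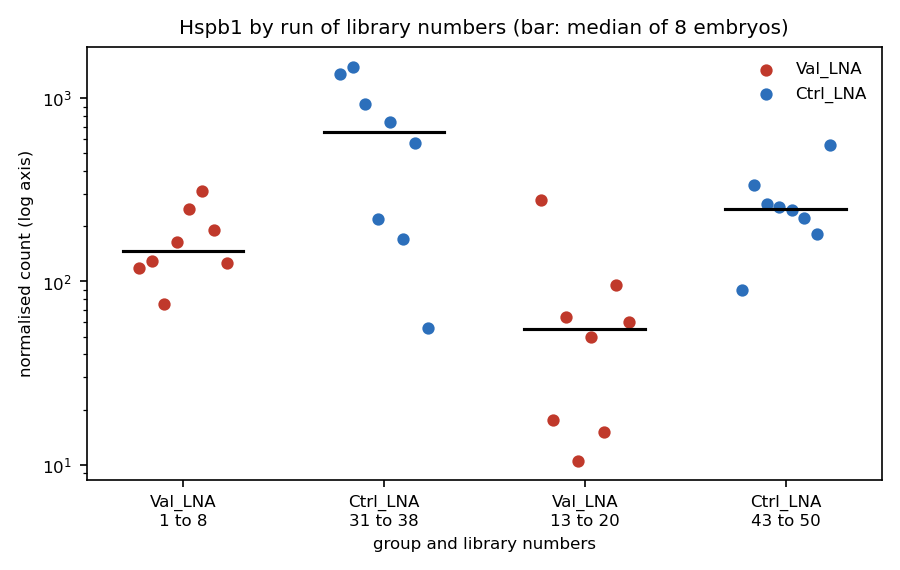
Normalised count of Hspb1 on a log axis by group and run of library numbers, with 1 point for each embryo and a bar at the median of 8 embryos. The medians are 146 in Val_LNA 1 to 8 beside 654 in Ctrl_LNA 31 to 38, and 55.0 in Val_LNA 13 to 20 beside 249 in Ctrl_LNA 43 to 50.

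The stress-inducible HSP70 is encoded by a pair of genes on chromosome 17, Hspa1a (ENSMUSG00000091971.3, chr17:34969190-34972156) and Hspa1b (ENSMUSG00000090877.3, chr17:34956436-34959238), each with a single exon on the minus strand. HSP70 binds and releases unfolded proteins in a cycle driven by ATP. The longest open reading frames of both transcripts were identical at 1918 of 1926 aligned bases (99.6%), with identical stretches of up to 638 bases. How the authors' counting assigned reads that fit both genes is not given in the sources used here, so the split between the copies is uncertain and their sum is given too. Reads of Hspa1a cannot be told apart from those of Gm20481, which is annotated on the opposite strand, because the protocol did not mark strand. Gm20481 is not among the genes with deposited values. In the 30 embryos with at least 10 reads of each, the ratio of Hspa1b to Hspa1a reads was 1.07 to 1.73 with a median of 1.30.

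The normalised count of Hspa1a was 106 at the lowest, 308 at the median and 759 at the highest in Val_LNA embryos, against 0, 309 and 1183 in Ctrl_LNA embryos. The count of Hspa1b was 113, 373 and 986 in Val_LNA embryos, against 2.10, 397 and 1585 in Ctrl_LNA embryos. The group medians were close and the Ctrl_LNA embryos reached further on both sides, with 2 embryos near 0 and 2 Ctrl_LNA embryos, numbers 36 and 43, above every Val_LNA embryo for Hspa1a. Summed, the copies averaged 829.9 ± 399.6 in Val_LNA embryos, against 945 ± 775 in Ctrl_LNA embryos (SD, n = 16 each). The limma log2 fold change of the sum was 0.65 ± 0.66 (95% interval −0.70 to 2.0, adjusted p 0.647), and 0.20 ± 0.53 without Ctrl_LNA 48 (adjusted p 0.886).

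The embryos near 0 were Ctrl_LNA 32 and Ctrl_LNA 48. Ctrl_LNA 32 had 0 reads of Hspa1a and 4 of Hspa1b among 5293523 reads, with 19967 genes detected. A count of 0 there allows up to 3 reads, or 2.71 as a normalised count, by counting error only. Ctrl_LNA 48 had 1 read of Hspa1a and 2 of Hspa1b. In the other 14 Ctrl_LNA embryos Hspa1a was 224 to 1183. Without these 2 embryos, a choice made after the values were seen, the log2 fold change of the sum was −0.31 ± 0.27 (95% interval −0.87 to 0.24, limma adjusted p 0.566). With both embryos kept, edgeR on the summed reads gave −0.29 (adjusted p 0.885), so the sign of the limma value changed with these embryos and also with the test. Ctrl_LNA 32 also had the highest Hspb1 of all embryos and the lowest Dnajb1 and Hsp90aa1 of the Ctrl_LNA embryos.

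Hspa8 encodes the constitutive HSP70, HSC70, which folds new proteins and uncoats clathrin vesicles in cells that are not stressed. The gene (ENSMUSG00000015656.17, chr9:40800984-40810087, plus strand) holds small nucleolar RNA genes of the same strand, among them Snord14c, Snord14d and Snord14e. Its normalised count was 1108 at the lowest, 1879 at the median and 3425 at the highest in Val_LNA embryos, against 1508, 2743 and 5929 in Ctrl_LNA embryos. The groups overlapped, 14 of 16 Val_LNA embryos were below the Ctrl_LNA median, and the highest value came from Ctrl_LNA 48. Limma gave a log2 fold change of −0.54 ± 0.17 (95% interval −0.88 to −0.19), with an unadjusted p of 0.00365 and an adjusted p of 0.104, past the threshold of the unadjusted test only. Without Ctrl_LNA 48 it was −0.46 (adjusted p 0.104), and with each embryo left out in turn the limma adjusted p was 0.0562 to 0.167. Within the lower runs the log2 fold change was −0.28, and within the upper runs −0.80 (limma adjusted p 0.282). In the upper runs without Ctrl_LNA 48 it was −0.65 (limma adjusted p 0.174).

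Hsph1 (ENSMUSG00000029657.15, chr5:149614287-149636376, minus strand) encodes an HSP110, which exchanges the nucleotide of HSP70. Its normalised count was 37.4 at the lowest, 527 at the median and 945 at the highest in Val_LNA embryos, against 325, 706 and 1282 in Ctrl_LNA embryos. The lowest value was Val_LNA 14, far below the next Val_LNA embryo at 254, and 12 of 16 Val_LNA embryos were below the Ctrl_LNA median. With limma the log2 fold change was −0.66 ± 0.31 (95% interval −1.29 to −0.04), with an adjusted p of 0.307. Without Val_LNA 14 it was −0.43.

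Dnajb1 (ENSMUSG00000005483.10, chr8:83608193-83612653, plus strand) encodes HSP40, a J protein that hands substrates to HSP70 and stimulates its ATPase. Dnajb1 had a normalised count of 193 at the lowest, 620.2 at the median and 1486 at the highest in Val_LNA embryos, against 487, 626 and 2239 in Ctrl_LNA embryos. The medians were close, 7 Val_LNA embryos lay below every Ctrl_LNA embryo, and the highest value was Ctrl_LNA 48. Without that library the highest Ctrl_LNA embryo had 1083. Limma gave a log2 fold change of −0.25 ± 0.25 (95% interval −0.76 to 0.25, adjusted p 0.631), and −0.14 without Ctrl_LNA 48.

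The cytosolic HSP90 chaperones mature kinases, steroid receptors and other client proteins, with Hsp90aa1 as the inducible and Hsp90ab1 as the constitutive form. Hsp90aa1 (ENSMUSG00000021270.13, chr12:110690605-110702728, minus strand) had a normalised count of 1526 at the lowest, 2026 at the median and 3452 at the highest in Val_LNA embryos, against 751, 1930.4 and 3868 in Ctrl_LNA embryos. The Val_LNA embryos lay within the range of the Ctrl_LNA embryos, whose SD on the log2 scale was 0.66 against 0.30 in Val_LNA. The limma log2 fold change was 0.18 ± 0.18 (95% interval −0.19 to 0.55, adjusted p 0.652), and −0.27 when every embryo was centred on its median gene, a step that lowered the values of all members by about the same amount. Ctrl_LNA 48 had 7276 genes detected, so most of the 15559 tested genes were at 0 there. Its median gene was therefore 0 and the centring did not shift it. Centring without that library was not tested.

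Hsp90ab1 (ENSMUSG00000023944.14, chr17:45567775-45573271, minus strand) had a normalised count of 2374 at the lowest, 4187 at the median and 6520 at the highest in Val_LNA embryos, against 2910, 4742 and 7494 in Ctrl_LNA embryos. The groups overlapped over most of their range, and 11 of 16 Val_LNA embryos were below the Ctrl_LNA median. In limma the log2 fold change was −0.24 ± 0.14 (95% interval −0.51 to 0.04, adjusted p 0.416).

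Hsf1 (ENSMUSG00000022556.11, chr15:76477422-76501913, plus strand) encodes the main activator of the heat shock response. Its normalised count was 547 at the lowest, 817 at the median and 2443 at the highest in Val_LNA embryos, against 1.05, 719 and 1201 in Ctrl_LNA embryos. The lowest value was Ctrl_LNA 48, the lowest of the other Ctrl_LNA embryos had 409, and 3 Val_LNA embryos lay above every Ctrl_LNA embryo. The limma log2 fold change was 0.83 ± 0.53 (95% interval −0.24 to 1.90, adjusted p 0.456), and 0.30 without Ctrl_LNA 48 (adjusted p 0.450).

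Hsf2 (ENSMUSG00000019878.8, chr10:57486385-57513135, plus strand) encodes a related factor with roles in germ cells and development. Hsf2 had a normalised count of 4.91 at the lowest, 27.5 at the median and 81.1 at the highest in Val_LNA embryos, against 1.05, 33.7 and 118 in Ctrl_LNA embryos. The groups overlapped, and the lowest value was again Ctrl_LNA 48. The limma log2 fold change was −0.10 ± 0.45 (95% interval −1.02 to 0.81, adjusted p 0.929), and −0.36 without Ctrl_LNA 48.

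Levels were compared between genes per length, as TPM (reads per exon length, scaled to the same total in every embryo). The exon length merges the exons of all annotated transcripts of a gene, for example 4301 bases for Hspa8, 3931 for Hsp90aa1 and 7099 for Hsf1. Which transcripts the embryos held was not tested. Where the transcript present is shorter, TPM is understated, so the order of genes with close values depends on the length used. Hsp90ab1 was the highest member, at 832 ± 223 TPM in Val_LNA embryos, against 1028 ± 219 TPM in Ctrl_LNA embryos (SD, n = 16 each), and its mean over all embryos ranked 102 of 34179 genes. Hspa8 followed with 276 ± 99.8 TPM in Val_LNA and 422 ± 136 TPM in Ctrl_LNA, and Hsp90aa1 with 339 ± 72.8 TPM in Val_LNA and 342 ± 138 TPM in Ctrl_LNA. With these lengths, Hspa8 was above Hsp90aa1 in 4 of 16 Val_LNA and 13 of 16 Ctrl_LNA embryos, so their order was not the same in both groups. Hspb1 came next by the mean over all 32 embryos, with 72.5 ± 60.3 TPM in Val_LNA and 293 ± 256 TPM in Ctrl_LNA. Its place differed between the groups: in Val_LNA its mean lay below those of Dnajb1, Hspa1b and Hsf1, it was below Hsp90aa1 in 16 of 16 Val_LNA and 10 of 16 Ctrl_LNA embryos, and it was above Dnajb1 in 4 of 16 Val_LNA and 10 of 16 Ctrl_LNA embryos. Dnajb1, Hspa1b, Hspa1a and Hsf1 had means of 72.3 to 121 TPM in Val_LNA and 63.4 to 150.2 TPM in Ctrl_LNA, and Hsph1 a median of 41.8 TPM in Val_LNA and 62.5 TPM in Ctrl_LNA. Hsf2 was the lowest member, at 2.05 ± 1.30 TPM in Val_LNA and 2.56 ± 1.90 TPM in Ctrl_LNA. Among neighbours in this order, Hsp90ab1 over Hspa8, Hspa1b over Hspa1a and Hsph1 over Hsf2 held in 32 of 32 embryos with a mean log2 ratio above its SD. For Hspa1b over Hspa1a the ratio covers 31 embryos, and Ctrl_LNA 32 and Ctrl_LNA 48 had at most 4 reads of either copy. The split of reads between these copies is uncertain, as stated above. The mean log2 ratio of the other neighbours was within its SD over both groups together. The 10 members together held 0.157% to 0.349% of the normalised counts in Val_LNA embryos, with a median of 0.270%, against 0.220% to 0.486% in Ctrl_LNA embryos, with a median of 0.316%.

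**Figure D4:**
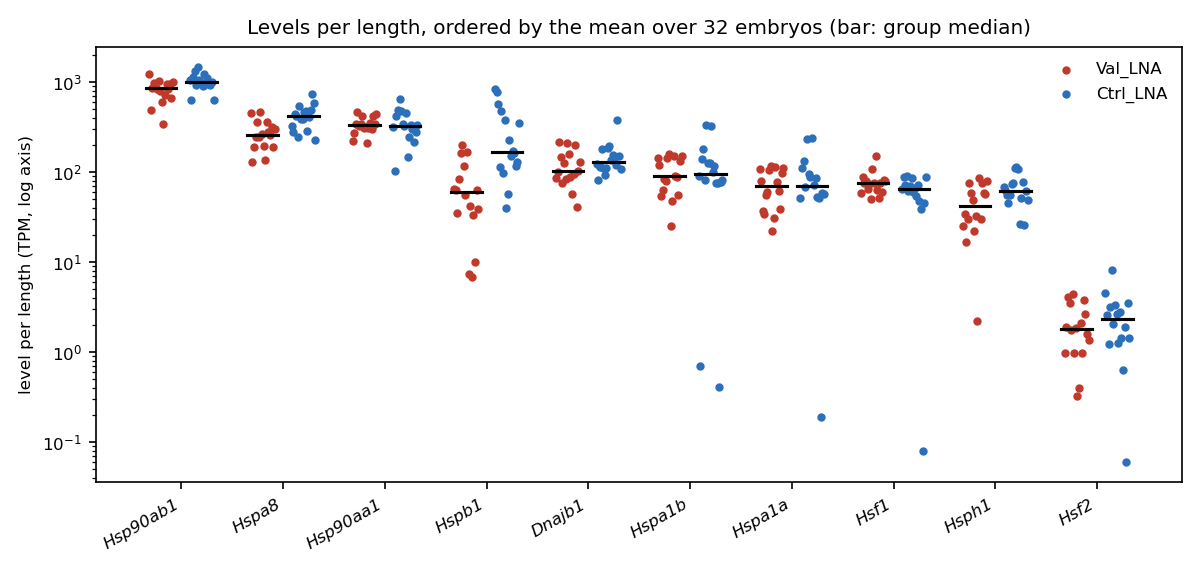
Level per length (TPM, log axis) of the 10 members in each embryo, ordered by the mean over 32 embryos, with a bar at the group median. Hsp90ab1 is highest and Hsf2 lowest, and the Hspa1a value of Ctrl_LNA 32, which is 0, is not drawn.

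The spread among embryos differed from member to member. On the log2 scale, the SD of Hspb1 was 1.46 in Val_LNA, above 89.7% of tested genes with a mean level between 0.5 and 2 times its own. Its SD was 1.32 in Ctrl_LNA, above 38.8% of such genes, and 1.36 without Ctrl_LNA 48, above 88.9%. The SD of Hsp90aa1 was 0.30 in Val_LNA, above 4.25% of genes of like level. In Ctrl_LNA it was 0.66, above 43.5%, and 0.68 without Ctrl_LNA 48, above 63.4%. The SD of Hspa1a was 0.76 in Val_LNA, above 46.2% of genes of like level, and 2.88 in Ctrl_LNA, above 99.5%. Without the 2 embryos near 0, its SD in Ctrl_LNA was 0.82, close to that in Val_LNA. These shares describe the embryos and were not tested.

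To see whether members varied together, correlations were computed over 32 embryos on log2 values centred on the group mean, for all 45 pairs, with 100000 permutations within groups. Hspa1a and Hspa1b had r = 0.991 and rho = 0.976 (permutation p 1e-05 for each, the smallest these permutations can give, adjusted 0.00045). Without Ctrl_LNA 32 and Ctrl_LNA 48, the embryos farthest from the median of Hspa1a, r was 0.983 and rho 0.967. How reads that fit both copies were counted bears on this value and was not tested.

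Hspa8 and Hsp90ab1, the constitutive forms of HSP70 and HSP90, had r = 0.675 (permutation p 3e-05, adjusted 0.000675) and rho = 0.666 (permutation p 0.0001, adjusted 0.00225). Without Ctrl_LNA 48 and Val_LNA 1, the farthest from the median of Hspa8, r was 0.682. The correlation was 0.767 within Val_LNA and 0.580 within Ctrl_LNA, and 0.790 within the lower and 0.594 within the upper runs. Hspa8 and Hsf1 had r = −0.515 (permutation p 0.00297, adjusted 0.0446) and rho = −0.378 (permutation p 0.0215, adjusted 0.322). Without Ctrl_LNA 48 and Val_LNA 1 r was −0.301, and without Ctrl_LNA 48 alone it was −0.314 (adjusted permutation p 0.334), so this relation rests on Ctrl_LNA 48. No other pair passed an adjusted permutation p under 0.05 in r over all 32 embryos. Without Ctrl_LNA 48, 3 more pairs passed in r (adjusted permutation p 0.0459 each) and not in rho (adjusted 0.320 to 0.324). They were Hspa1a with Hsp90aa1 (r 0.574) and Hspa1b with Hsp90aa1 (r 0.577), which had r of 0.224 and 0.236 without Ctrl_LNA 32 and 36 as well, and Hsph1 with Hsf1 (r −0.553), which had −0.245 without Val_LNA 14 and Ctrl_LNA 45 as well. These 3 relations rest on those embryos. Hspb1 had r of −0.211 to 0.207 with the other 9 members, with adjusted permutation p of 0.512 to 0.961.

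**Figure D5:**
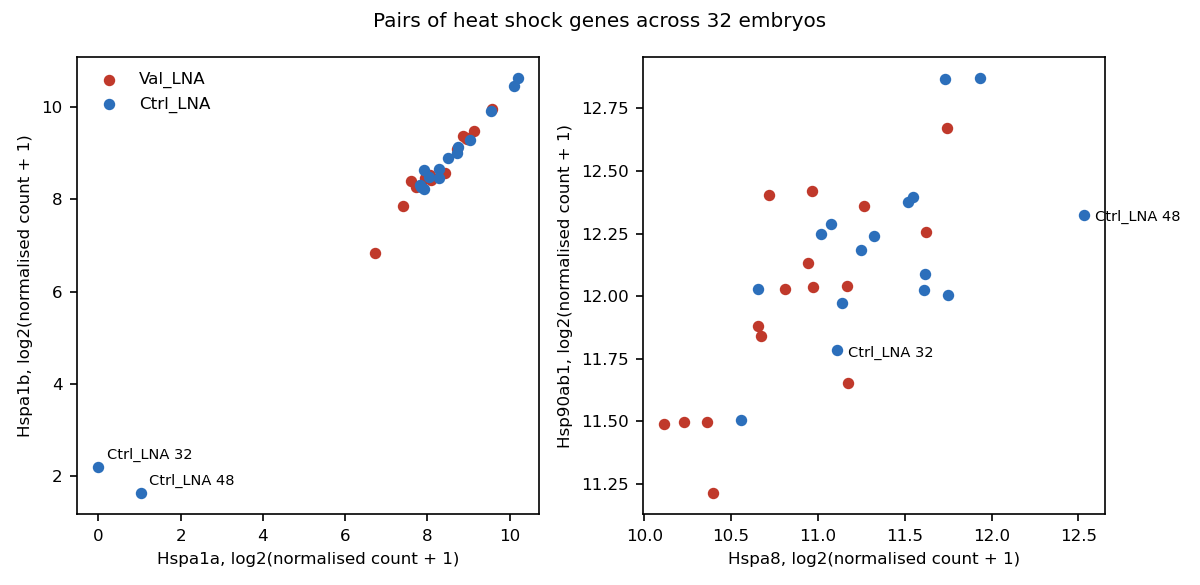
Log2(normalised count + 1) of Hspa1b against Hspa1a (left) and of Hsp90ab1 against Hspa8 (right), with 1 point for each of 32 embryos. The left points follow a line with Ctrl_LNA 32 and Ctrl_LNA 48 near 0, and the right points rise together with Ctrl_LNA 48 at the highest Hspa8.

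Among 8212 tested genes with a mean normalised count of at least 50, those whose centred log2 values were most like Hspb1 over the 32 embryos were Dusp4 (r 0.679), Osbpl10 (r 0.593) and Ticam1 (r 0.576). Those most like Hspa8 were the ribosomal protein genes Rps9 (r 0.772), Fau (r 0.725) and Rpl9 (r 0.698), with 0.737, 0.644 and 0.652 without Ctrl_LNA 48. Those most like Hsf1 were Ldhb (r 0.984), Sap130 (r 0.982) and Med25 (r 0.982), with 0.860, 0.859 and 0.840 without Ctrl_LNA 48. These values are descriptions over embryos that share their libraries and depth, and carry no p.

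Of 80 other heat shock and cochaperone genes in 8 lists, 76 were in the table and 67 were tested. With limma, 1 of the 67 was lower in Val_LNA and 0 were higher, beside 1.31% and 0.881% of all tested genes, and 29 were negative with a median log2 fold change of 0.07. Without Ctrl_LNA 48, 2 were lower and 1 was higher, beside 2.63% and 1.57% of all genes. The gene that fell was Fkbp4, an immunophilin that works with HSP90 on steroid receptors. Its normalised count was 82.3 at the lowest, 569 at the median and 1592 at the highest in Val_LNA embryos, against 545, 1151 and 2965 in Ctrl_LNA embryos. The Val_LNA embryos lay lower with overlap, and the limma log2 fold change was −1.17 ± 0.33 (adjusted p 0.0456), while edgeR gave −0.95 with an adjusted p of 0.178. DESeq2 did not call Fkbp4 and called 1 other of the 67 genes lower, Grpel1, and 0 higher, beside 2.19% and 1.33% of all genes, so the gene called changed between tools.

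By role, 0 of the 18 tested HSP90 and HSP70 cochaperones were higher and 1, Fkbp4, was lower with limma, and their median log2 fold change was 0.15. None of the 16 tested J proteins was called with limma, where the median was 0.04 and Dnaja1, a cytosolic partner of HSP70, had the smallest p at −0.43 ± 0.19 (adjusted p 0.297). None of the 6 other cytosolic HSP70 and HSP110 genes was called, where Hspa14 had −0.70 ± 0.27 (limma adjusted p 0.212). Of the 5 mitochondrial HSP70 and HSP90 system genes, limma and edgeR called none over all embryos and DESeq2 called Grpel1 lower. Grpel1, which exchanges the nucleotide of mitochondrial HSP70, had a normalised count of 61.8 at the lowest, 205 at the median and 391 at the highest in Val_LNA embryos, against 187, 316 and 644 in Ctrl_LNA embryos. Its limma log2 fold change was −0.85 ± 0.27 (adjusted p 0.0905), and its adjusted p was 0.0473 without Ctrl_LNA 48. None of the 11 chaperonin genes, the 7 nucleotide exchange factors, the 2 other factor genes and the 2 other small heat shock protein genes that were tested was called with limma, and the smallest p in these lists belonged to Cct6b (1.41 ± 0.57, adjusted p 0.236), Bag2 (1.69 ± 0.86, adjusted p 0.355), Hsf5 (0.64 ± 0.42, adjusted p 0.466) and Hspb6 (−0.17, adjusted p 0.936). For Hspb6 the sign changed with the test, since edgeR gave 0.81 (adjusted p 0.753). Its highest normalised count was 268 in Val_LNA embryos, against 93.8 in Ctrl_LNA embryos.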

How the data were processed

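Single embryos were lysed in wells, and their polyadenylated RNA was turned into cDNA with template switching, amplified by 20 PCR cycles and tagmented, per the labels' protocols. No molecular identifiers are named, so intervals and limits from counts cover counting error only. Bowtie2, STAR, SAMtools, DESeq2 and the mouse build mm10 are named in the submitters' processing notes. What each did, in which version, and which gene annotation was used is not given in the sources used here.

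Deposited by the authors were a signal per gene and embryo, which holds counts divided by DESeq size factors per the file headers and names, and the size factors in another file. Multiplying both gave whole reads, within 0.01, for 1095136 of 1095136 values (100%). Depth was 2592925 to 6259870 reads per embryo. No column was without a sample. The chi-square per gene was at least 23.4 in the 240 within-group pairs, so no pair within a group looked like 1 library deposited more than once, and pairs across groups were not compared.

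The main test was limma 3.58.1 (R 4.3.3, trend and robust options) on log2(normalised count + 1) over 15559 genes with at least 10 in at least 8 embryos, with Benjamini-Hochberg adjustment over all of them. A fold change on this scale understates the change of low genes. The recovered reads entered edgeR 4.0.16 (quasi-likelihood), DESeq2 1.42.0 and voom as alternatives. EdgeR called 29 genes higher and 163 lower. Other alternatives changed the pseudocount, filter, scaling and covariates, used array weights, took the runs of library numbers alone, or left out embryos. The interaction of treatment and run was also tested with limma. Correlations used numpy 2.4.6 and scipy 1.17.1 in Python 3.11.15 with pandas 2.3.3, and figures matplotlib 3.10.9. Scripts for the tests were tested on simulated data.

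Identifiers matched GENCODE M21 (GRCm38) for 34179 of 34223 genes (99.9%), which gave coordinates, counted from 1, and exon lengths. Promoters are from RefSeq (GRCm38.p6). The members and the lists were chosen with earlier results of these data known. Besides every member, the genes named are the called genes of each other heat shock list, or else the one with the smallest p, and the 3 genes most correlated with each of Hspb1, Hspa8 and Hsf1. Grpel1 is the gene of its list with the smallest p.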

Additional observations from a re-analysis of the deposited data

How the results depend on the processing

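The alternatives overlap, since for each member 32 of them left out 1 embryo and kept all others. Changing the filter or adding run as a covariate left the members' log2 fold changes as they were. The counts that follow are therefore not counts of independent checks. Of 499 values of members under the alternatives, 477 kept their direction and their side of the threshold, 3 were the same in direction but no longer called, and 19 reversed. The 3 were Hspb1 at −1.52 in the lower runs, −2.40 in the upper runs and −2.42 in the upper runs without Ctrl_LNA 48, so the count of members called lower was 0 in each of these. These fits hold 7 or 8 embryos a group. Hspa1a reversed to −0.30 with edgeR, −0.20 with DESeq2, −0.055 with array weights, −0.27 in the upper runs without Ctrl_LNA 48, −0.39 with edgeR without Ctrl_LNA 48 and −0.32 without Ctrl_LNA 32 and 48. Hspa1b reversed to −0.28, −0.18, −0.10, −0.31, −0.37 and −0.31 under the same 6 settings. Their sum reversed to −0.29 with edgeR, −0.38 with edgeR without Ctrl_LNA 48, −0.29 in the upper runs without it and −0.31 without Ctrl_LNA 32 and 48. Hsp90aa1 reversed to −0.016 with edgeR, −0.034 with edgeR without Ctrl_LNA 48 and −0.27 with median-gene centring, where the median of all genes fell with it. That centring did not shift Ctrl_LNA 48, whose median gene was 0. Dnajb1 was 0.17 in the lower runs. Hsf2 was 0.16 in the upper runs, −0.29 in the upper runs without Ctrl_LNA 48, and −0.36 to 0.046 with each embryo left out in turn. The cause of these reversals was not tested. Hsf2 did not pass the filter of 50 in 16 embryos, so it has no value there.

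Over all genes, limma called 137 higher and 204 lower. Centring on the median gene gave 61 higher and 300 lower, with a median log2 fold change of −0.19 beside 0.26, and TMM gave a median of 0.18. The number called higher was 29 with edgeR, 207 with DESeq2, 87 with no filter, 91 with a filter of 50 in 16 embryos, 373 with genes detected as covariate, 353 with array weights, 2 in the upper runs, 7 there without Ctrl_LNA 48, 84 with edgeR without it, 237 without Ctrl_LNA 32 and 48, and 100 to 245 with each embryo left out. The number called lower was 340 with DESeq2, 363 with genes detected, 564 with array weights, 83 in the lower runs, 33 in the upper runs, 124 there without Ctrl_LNA 48, 411 without Ctrl_LNA 32 and 48, and 176 to 409 with each embryo left out. Of the other heat shock genes, 0 were lower with edgeR, with and without Ctrl_LNA 48, and without Ctrl_LNA 48 limma called 2 lower (Grpel1 and Fkbp4) and 1 higher (Cdc37l1). Without Ctrl_LNA 48, 5 pairs of members passed in r, against 3 over all embryos, and 2 of them passed in rho as well. No paired analysis was possible because the groups share no library numbers.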

Other observations

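The extreme embryos of several members were the same few libraries. Val_LNA 14 had the lowest Hsph1 (37.4) and the lowest Hsp90ab1 (2374) and the highest Hsf1 (2443) of the Val_LNA embryos, as normalised counts. Val_LNA 13 had the lowest Hspa1a (106), Hspa1b (113) and Hsf2 (4.91) of the Val_LNA embryos, and Val_LNA 8 the highest Hspa1a (759), Hspa1b (986) and Dnajb1 (1486). Among the Ctrl_LNA embryos, number 36 had the highest Hspa1a (1183), Hspa1b (1585) and Hsp90ab1 (7494). These embryos were picked out after their values were seen.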
